A study of Saccharomyces cerevisiae with 66 samples.

Results

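MTAC, the assay of these data, asks which stretches of the yeast genome come close to a chosen locus, the viewpoint (VP). Here the VP was PUS2, a gene for a mitochondrial tRNA pseudouridine synthase on the left arm of chromosome VII, and the data are the comparison of its targeted strain with a control strain at every nucleosome-depleted region (NDR) of the deposited table. All 4828 NDRs of that table were kept, out of 4828 listed in each of the 4 tables used, and were divided by their position: 27 within 30 kb of the VP (local), 428 farther along chromosome VII (far-cis) and 4373 on the other chromosomes (trans). The series holds 66 libraries, of which 4 entered this comparison.

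The targeted strain, yLB121a-PUS2, was Saccharomyces cerevisiae of mating type MATa, with the alleles ade2-1 and can1-100, the markers ura3-1 and trp1-1, and double mutations of his3 (numbered 11 and 15) and leu2 (numbered 3 and 112). At ADH1 it carried, with LEU2, the construct 2xlexO-GAL1corepr-LacI-SV40NLS-M.CviPI next to ADH1pr-LexA-ERHBD-VP16AD, and in addition PUS2::256XLacO::HIS3. The control strain, yLB121a, had the same background and the same construct at ADH1, with neither the LacO array nor HIS3 beside it, so array and marker cannot be told apart as sources of a difference. By the study, all strains derive from W303 and were grown in synthetic medium with or without methionine. The labels of these libraries do not say which of the 2 media was used. Both strains were given 2 nM β-estradiol for 2 h, which switches on the LacI fusion through LexA-ERHBD-VP16AD. Each strain gave 2 libraries, described by the study as biologically independent. Each VP is represented by 1 strain, and whether PUS2 was left intact by the insertion is not given in the sources used here.

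M.CviPI methylates the cytosine of GC dinucleotides, a modification that yeast DNA does not otherwise carry. Fused to LacI, the enzyme gathers on the LacO array and marks DNA that comes near it, mainly where nucleosomes leave the DNA open, as at promoters. The methylated fragments are then pulled down with an antibody against 5-methylcytosine and sequenced (MeDIP-seq). Unbound fusion protein methylates the whole genome at a low level, which is what the control strain measures. A higher value in the targeted strain can come from more cells in contact or from more methylation per cell, and the 2 cannot be told apart.

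By the read totals the study lists, both PUS2 libraries were shallower than both control libraries. The base mean, the average over the 4 libraries of the reads per NDR after scaling by size factors, had a median of 49.5 (range 1.06 to 7872), and the standard error (SE) of a log2 fold change had a median of 0.30. The tables hold no value per library. Levels of the 2 strains given below were therefore worked out from the base mean and the log2 fold change, in normalised reads per NDR, and they are approximate, since the deposited fold changes may be drawn toward 0 (their SE did not exceed 0.36 even at the lowest base means). An NDR was called raised at a log2 fold change above 0.7 with an adjusted p under 0.05 (Wald test on the SE of DESeq2, Benjamini-Hochberg over all 4828 NDRs), and lowered under -0.7. NDRs carry the names of genes that start within 1 kb, or else of the nearest gene.

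The VP coordinate given by the study, VII 383359 on R64 (sacCer3), lies in the gap between the divergent genes MRH4 and PUS2, 151 bp before the start of MRH4 (a mitochondrial RNA helicase) and 295 bp before that of PUS2, and 114 kb left of the centromere. It falls inside an NDR. The sequences below show the plus strand of R64 at the NDRs on which the results turn, with every GC, the site of the methyltransferase, in capitals. MRH4/PUS2, PYC1, ALG2 and AFT1 are raised NDRs near the VP, and PKP2 and RAD6 are local NDRs with hardly any GC and log2 fold changes near 0 from PUS2. MUP1 and STR3 are the strongest NDRs beyond 30 kb. Of PYC1 and MUP1, whose NDRs are longer, the 300 bases richest in GC are shown.
MRH4/PUS2, chrVII:383227-383404: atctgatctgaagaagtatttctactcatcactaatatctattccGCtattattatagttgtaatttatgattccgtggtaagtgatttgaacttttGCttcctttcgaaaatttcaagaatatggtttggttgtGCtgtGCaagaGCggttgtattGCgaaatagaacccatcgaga
PYC1, chrVII:384591-384890: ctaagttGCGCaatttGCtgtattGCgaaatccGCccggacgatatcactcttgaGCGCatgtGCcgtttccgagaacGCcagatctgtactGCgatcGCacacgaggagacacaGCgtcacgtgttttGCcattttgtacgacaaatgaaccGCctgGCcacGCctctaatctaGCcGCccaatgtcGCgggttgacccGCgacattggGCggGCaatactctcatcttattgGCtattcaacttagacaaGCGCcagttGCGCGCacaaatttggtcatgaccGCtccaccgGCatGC
ALG2, chrVII:381319-381470: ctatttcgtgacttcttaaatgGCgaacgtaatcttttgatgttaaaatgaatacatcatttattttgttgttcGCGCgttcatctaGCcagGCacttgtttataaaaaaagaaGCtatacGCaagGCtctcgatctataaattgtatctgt
AFT1, chrVII:371222-371481: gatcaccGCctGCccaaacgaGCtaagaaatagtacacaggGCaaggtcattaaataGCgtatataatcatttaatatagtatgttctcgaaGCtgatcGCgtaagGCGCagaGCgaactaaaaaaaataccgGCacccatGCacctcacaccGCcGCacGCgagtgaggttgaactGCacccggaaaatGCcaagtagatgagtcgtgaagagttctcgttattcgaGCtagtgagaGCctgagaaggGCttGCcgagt
PKP2, chrVII:392018-392166: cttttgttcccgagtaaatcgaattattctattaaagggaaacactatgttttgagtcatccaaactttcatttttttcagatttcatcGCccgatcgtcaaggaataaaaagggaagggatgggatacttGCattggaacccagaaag
RAD6, chrVII:394818-394897: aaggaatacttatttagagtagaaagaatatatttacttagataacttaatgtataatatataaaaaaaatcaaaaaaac
MUP1, chrVII:598839-599138: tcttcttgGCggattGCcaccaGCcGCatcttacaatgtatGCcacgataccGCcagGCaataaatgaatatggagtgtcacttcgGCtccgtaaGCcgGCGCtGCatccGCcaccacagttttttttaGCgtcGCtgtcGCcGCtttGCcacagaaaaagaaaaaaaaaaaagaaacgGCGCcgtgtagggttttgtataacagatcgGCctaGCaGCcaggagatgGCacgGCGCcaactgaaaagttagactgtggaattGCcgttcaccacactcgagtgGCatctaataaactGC
STR3, chrVII:156271-156493: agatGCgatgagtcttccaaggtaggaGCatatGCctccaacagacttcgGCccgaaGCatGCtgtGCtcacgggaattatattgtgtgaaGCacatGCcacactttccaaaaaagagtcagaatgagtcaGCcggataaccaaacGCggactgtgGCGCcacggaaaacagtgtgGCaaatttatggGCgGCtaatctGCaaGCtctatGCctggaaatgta
STR3, chrVII:156076-156181: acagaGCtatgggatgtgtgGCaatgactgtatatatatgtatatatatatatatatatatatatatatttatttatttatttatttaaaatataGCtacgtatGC

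The NDR at the VP has 6 GC sites in 178 bp, that of PYC1 42 in 480 bp, that of AFT1 21 in 260 bp and that of ALG2 8 in 152 bp. PKP2 has 2 in 149 bp and the second RAD6 NDR none in 80 bp. MUP1 has 37 in 562 bp, and the STR3 pair has 19 in 223 bp and 4 in 106 bp. NDR ends, and with them sequences, were at hand for 1998 NDRs, on chromosomes I to VII and part of VIII. Across these the median NDR was 180 bp long with 6 GC sites, and 36 had none. The 25 raised NDRs among them had a median of 18 GC sites (range 4 to 42). NDRs with 10 or more GC sites numbered 551, of which 20 were raised, while 0 of 217 NDRs with 0 to 2 sites were raised. The number of sites went with the base mean (Spearman 0.66 over the 1998 NDRs, which share the same 4 libraries), and so is not separate from the depth of an NDR. By the study's methods the DNA was sheared to fragments longer than the median NDR, and reads that overlap an NDR counted for it. GC sites outside an NDR could thus add to its reads, and the counts above leave those sites out.

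The strongest signal of the table lay at the VP itself. The NDR between MRH4 and PUS2 (VII 383227 to 383404, outside any annotated gene) had a level of 1514 normalised reads in the PUS2 strain and 97.1 in the control, which is the largest fold change of all 4828 NDRs. Its log2 fold change was 3.96 (SE 0.23, DESeq2, adjusted p = 6.96e-63). The sequence shown above has 6 GC sites here, which is the median number over the 1998 NDRs with known ends, and fewer than those of the other raised NDRs near it except DUO1/YBP2, which has 5.

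In all, 37 of 4828 NDRs were raised (0.766% of those tested) and 1 was lowered (0.0207%). Of the raised NDRs 7 were local, 6 far-cis and 24 trans. That is 25.9% of the 27 local NDRs, 1.40% of the 428 far-cis NDRs and 0.549% of the 4373 trans NDRs. At an unadjusted p under 0.05, 422 NDRs were higher and 290 lower than in the control. The log2 fold change went up with base mean (Spearman 0.55 over 4828 NDRs), and every raised NDR had a base mean of at least 82.9. With the running median over base mean taken away, 14 NDRs were raised and 41 lowered, against 37 and 1 without this step.

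**Figure D1:**
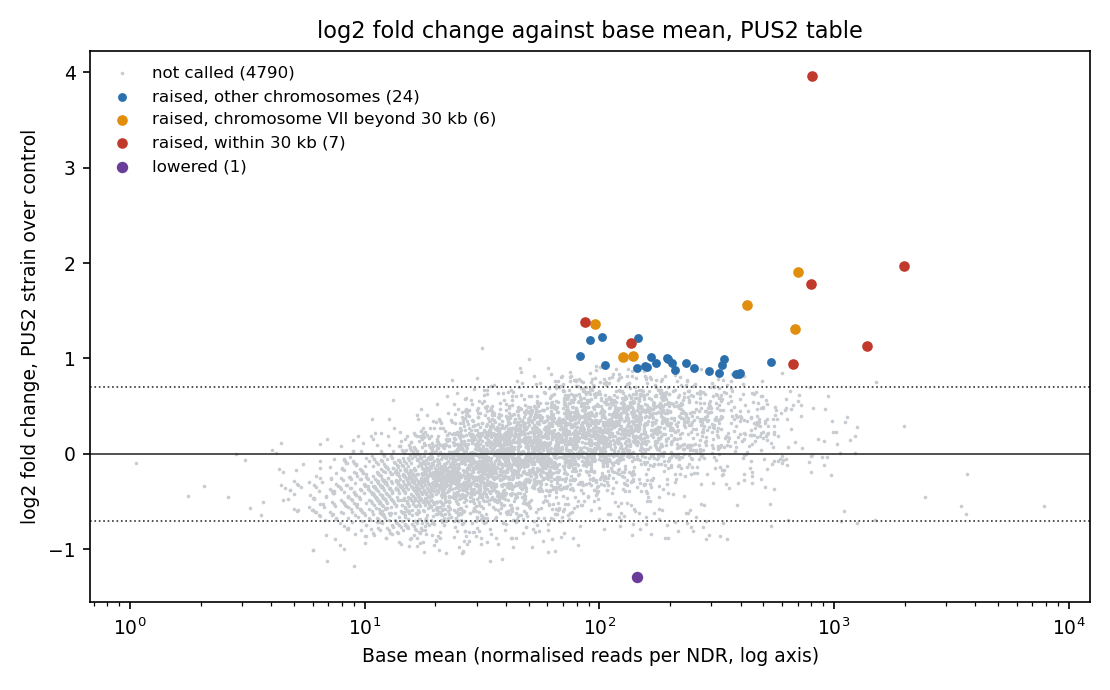
The log2 fold change of the PUS2 strain over the control (vertical axis) is plotted against the base mean in normalised reads per NDR (horizontal log axis) for all 4828 NDRs of the PUS2 table, with called NDRs coloured by place and dotted lines at 0.7 and -0.7. The cloud climbs from left to right, and all 37 raised NDRs sit at base means of 82.9 to 1979.

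Close to the VP, NDRs before genes on both sides were raised. PYC1, the gene for pyruvate carboxylase, starts 161 bp past an NDR (VII 384556 to 385035) that also covers the last 211 bp of PUS2. Its level was 3155 in the PUS2 strain and 804 in the control (log2 fold change 1.97, SE 0.21, DESeq2, adjusted p = 9.8e-17), the highest level of any raised NDR. ALG2, a mannosyltransferase gene of N-glycosylation, has its NDR (VII 381319 to 381470) 48 bp from the gene start, with 126 in the PUS2 strain and 48.4 in the control. At ALG2 the log2 fold change was 1.38 (SE 0.28, DESeq2, adjusted p = 4.95e-04). All 3 NDRs within 5 kb of the VP were raised.

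From 5 to 10 kb, 1 of 5 NDRs was raised. It lay 6.43 kb right of the VP between DUO1, a gene of the kinetochore's Dam1 complex, and YBP2, a gene of the oxidative stress response (VII 389786 to 389914). Its level was 188 in the PUS2 strain and 83.9 in the control (log2 fold change 1.17, SE 0.25). A second NDR of DUO1, 5.37 kb from the VP, had -0.43 (SE 0.35), and that of PKP2, a kinase gene of the pyruvate dehydrogenase complex 8.66 kb away, had -0.04 (SE 0.36). On the left, SGF73, a SAGA subunit gene, had 0.60 (SE 0.30) at 6.13 kb, and RPB9 with MNP1, genes of RNA polymerase II and of the mitochondrial ribosome, had 0.46 (SE 0.28) at 8.49 kb. None of these 4 passed the test. Those of DUO1 and PKP2 had levels of only 14.3 and 9.98 in the PUS2 strain, and 19.4 and 10.3 in the control.

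Farther out, 3 local NDRs stood above their surroundings. The NDR before AFT1, the gene of the iron-responsive transcription factor, lay 12.1 kb left of the VP (VII 371222 to 371481) and had 1234 in the PUS2 strain and 360 in the control. Its log2 fold change of 1.78 (SE 0.24, DESeq2, adjusted p = 2.18e-10) exceeded that of ALG2 closer to the VP. On the right, the NDR shared by SDS23 and OLE1, the fatty acid desaturase gene, had 1898 in the PUS2 strain and 869 in the control at 14.4 kb (log2 fold change 1.13, SE 0.24). RIM8, a gene of the response to external pH, lies beside an NDR 29.8 kb away with 877 in the PUS2 strain and 458 in the control (log2 fold change 0.94, SE 0.24, DESeq2, adjusted p = 0.0174). This last NDR is the closest to the 30 kb limit and is the only local one whose call was lost after removal of the running median.

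**Figure D2:**
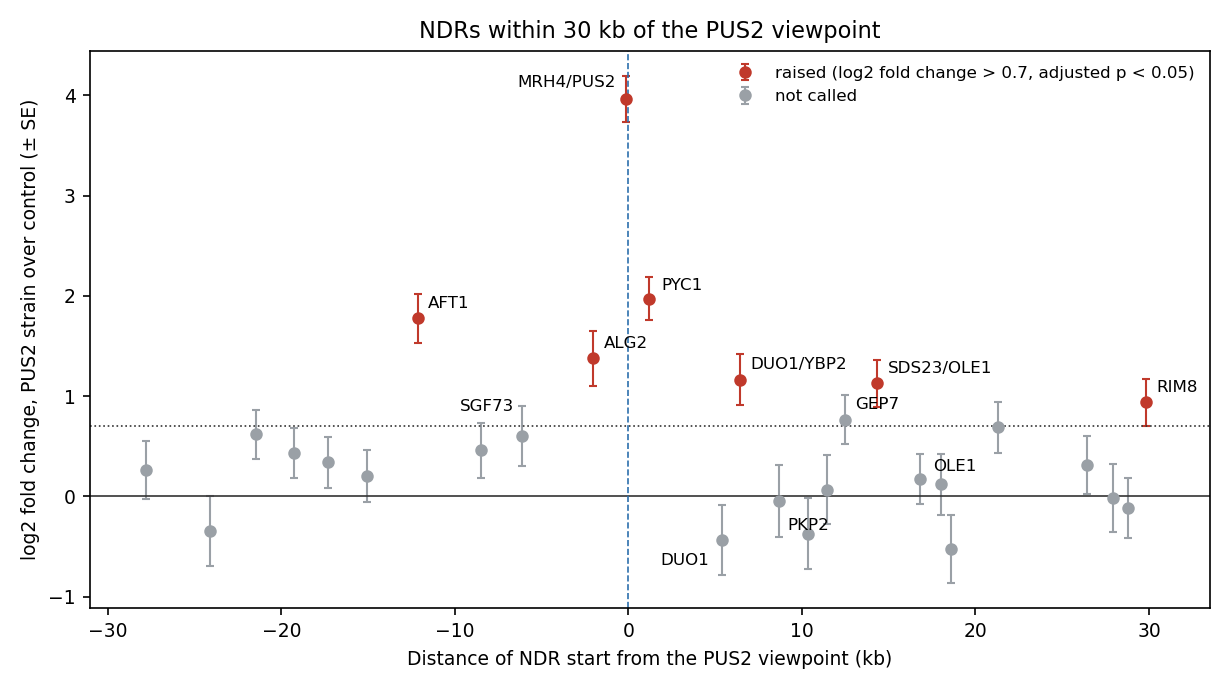
The log2 fold change of the PUS2 strain over the control, with its SE as error bars (vertical axis), is plotted against the distance of the NDR start from the VP in kb (horizontal axis, dashed line at the VP) for the 27 local NDRs. The 7 raised NDRs run from 3.96 at MRH4/PUS2 to 0.94 at RIM8, with uncalled NDRs between them on both sides.

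Signal did not fall evenly with distance. Within 5 kb the 3 NDRs had a median of 1.97. The median dropped to 0.46 for the 5 NDRs at 5 to 10 kb and was 0.21 and 0.29 for the 11 and 8 NDRs of the next 2 bins, up to 20 and 30 kb. It was 0.19 for 17 NDRs up to 50 kb and 0.05 for 42 NDRs up to 100 kb. The last 2 bins held no raised NDR, with 5 and 4 above the control at an unadjusted p under 0.05. Within 30 kb the values went with the level of the NDR. Of 13 local NDRs with a base mean of at least 100, all were above 0 and 6 were raised. Of 10 with a base mean under 50, 3 were above 0 and none was raised. The base mean includes the PUS2 strain and so goes up with the fold change itself. By the level in the control, 4 of 11 local NDRs at 100 or more were raised and all 11 were above 0, while 1 of 11 under 50 was raised and 4 were above 0. The local NDRs that were not raised had a median of 5 GC sites, those raised a median of 21.

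Among the 20 local NDRs not called, GEP7 came closest to the limits with 0.77 (SE 0.25, adjusted p = 0.0895). The NDR of MST27, a gene for a protein of COPI and COPII vesicles, had 0.69 (SE 0.25), and that of DBP3, an RNA helicase gene of ribosome assembly, 0.62 (SE 0.25). HNM1 (choline permease), RPL7A (ribosomal protein), TIF4632 (initiation factor 4G), MIY3, MPS2 with HSF1 (spindle pole body and heat shock factor), the 3′ side of OLE1, ERV14 (cargo receptor of COPII vesicles) and the second RAD6 NDR ranged between 0.43 and 0.07. The remaining 5 besides DUO1 and PKP2 were below 0, from -0.02 at RPT6 to -0.52 between ERV14 and PRM8, with base means of 15.3 to 45.3.

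Along the rest of chromosome VII the 6 raised NDRs lay at 5 loci on both arms. MUP1, the high-affinity methionine permease gene on the right arm, had 1109 in the PUS2 strain and 295 in the control at its NDR (VII 598757 to 599318), which ends 99 bp before the gene. This gave a log2 fold change of 1.91 (SE 0.26, DESeq2, adjusted p = 3.77e-10) at 215 kb from the VP, above every local value except those of MRH4/PUS2 and PYC1. YGR050C, the nearest raised locus to it, had 972 in the PUS2 strain and 393 in the control (log2 fold change 1.31, SE 0.26). These NDRs lie 102 and 95.5 kb right of the centromere, and the VP lies 114 kb left of it. Of the 21 NDRs 90 to 140 kb right of the centromere these 2 were raised, and the median of the 21 was 0.03.

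STR3 encodes cystathionine beta-lyase, an enzyme of methionine synthesis, and lies 227 kb left of the VP. Its 2 NDRs start 195 bp apart. The NDR farther from the gene (VII 156271 to 156493) had 635 in the PUS2 strain and 216 in the control (log2 fold change 1.56, SE 0.23, DESeq2, adjusted p = 3.19e-08), and the nearer one (VII 156076 to 156181) had 137 and 53.6 in the same order (1.36, SE 0.28, DESeq2, adjusted p = 9.28e-04). Reads that overlap both NDRs counted for both, so the pair is not 2 separate observations. PMC1, the vacuolar calcium pump gene 11.8 kb from the centromere, had 187 in the PUS2 strain and 92.1 in the control (log2 fold change 1.02, SE 0.25). FHN1 and YGR130C, genes for proteins of the eisosome, a plasma membrane domain, share an NDR 371 kb from the VP with 169 in the PUS2 strain and 83.6 in the control (log2 fold change 1.01, SE 0.26). Beyond this NDR, 126 NDRs farther than 400 kb from the VP held none that was raised and 10 above the control at an unadjusted p, and their highest log2 fold change was 0.78. After removal of the running median PMC1 and FHN1/YGR130C, both at 0.76, were no longer called (adjusted p = 0.134 and 0.165), and the other 4 far-cis calls stayed.

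**Figure D3:**
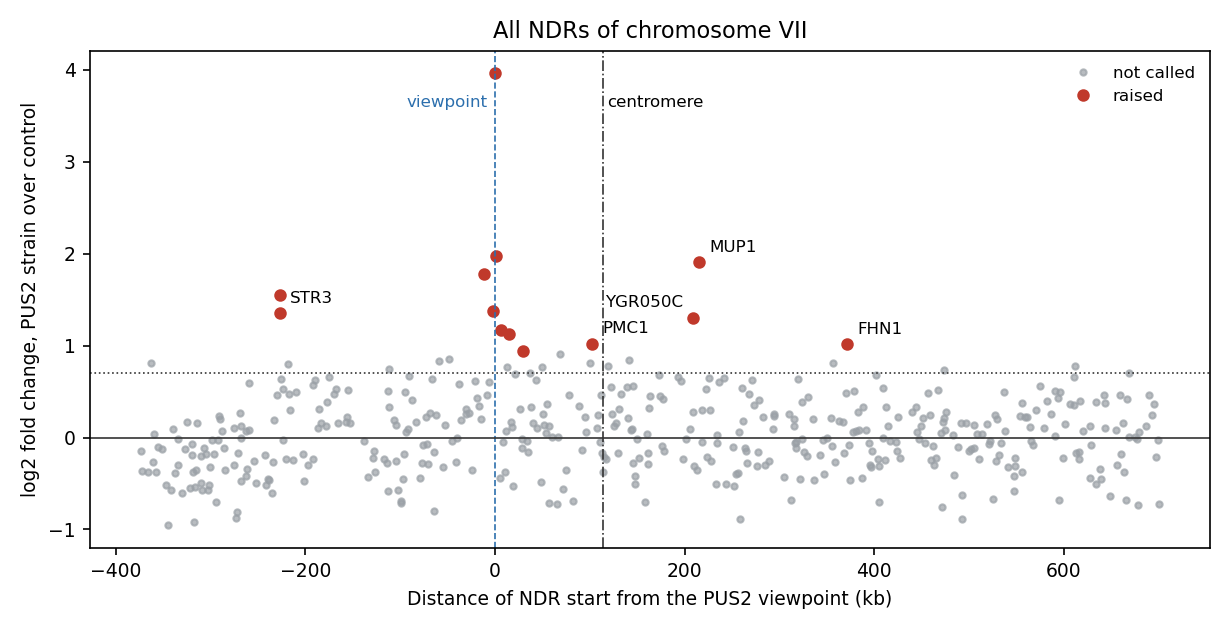
The log2 fold change of the PUS2 strain over the control (vertical axis) is plotted against distance from the VP in kb (horizontal axis) for the 455 NDRs of chromosome VII, with the VP and the centromere as vertical lines. The 13 raised NDRs form a group at the VP and 5 isolated loci named in the plot, surrounded by uncalled NDRs.

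**Figure D4:**
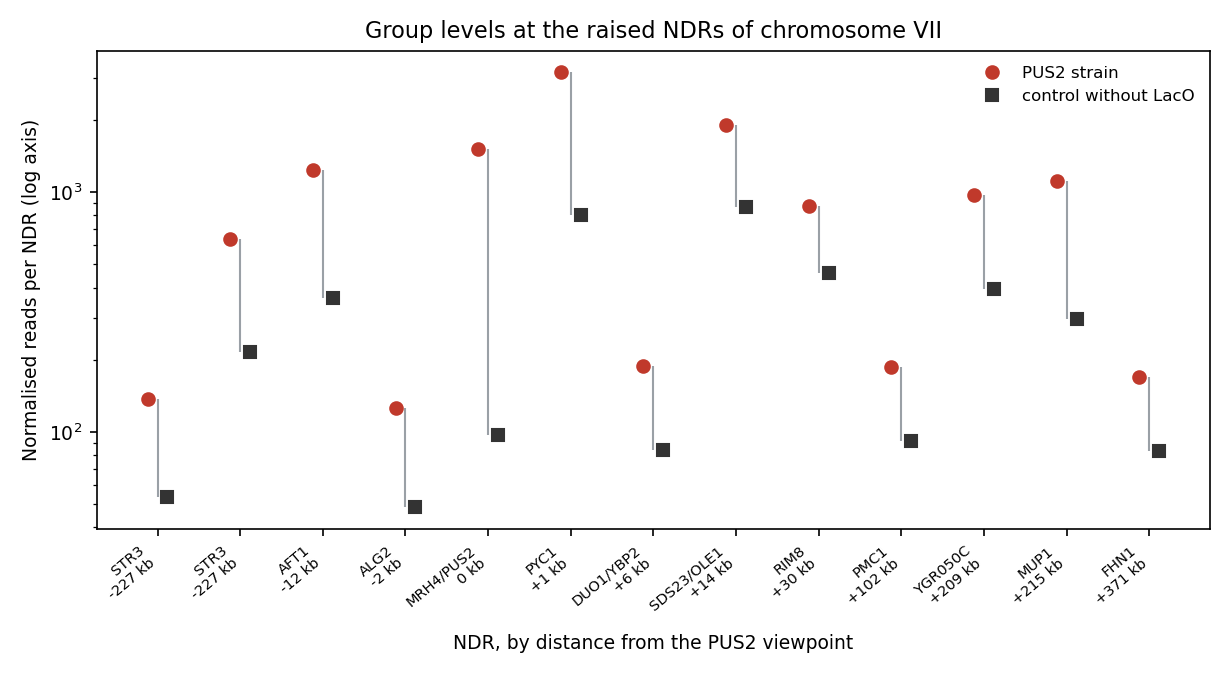
Levels in the PUS2 strain (circles) and the control without LacO (squares), in normalised reads per NDR on a log axis, are shown for the 13 raised NDRs of chromosome VII in order of position. They were worked out from the base mean and the deposited log2 fold change, so they carry no error of their own, and the gap on the log axis is widest at MRH4/PUS2 (1514 against 97.1).

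A motif that Met31 and Met32, zinc finger activators of methionine genes, are known to bind has the core TGTGGC, and another factor of these genes, Cbf1, binds CACGTG. Searched on both strands, TGTGGC occurred in 119 of the 1998 NDRs (5.96%), and CACGTG, which is its own reverse complement, in 88 (4.40%). The 6 raised far-cis NDRs held TGTGGC in 4 cases, at MUP1, PMC1 and both STR3 NDRs, and CACGTG in none. The 7 raised local NDRs held CACGTG in 2 cases, at PYC1 and SDS23/OLE1, and TGTGGC in 1, at RIM8. Among the 422 other far-cis NDRs these motifs occurred in 23 (5.45%) and 16 (3.79%). TGTGGC itself holds a GC site, and the raised far-cis NDRs had a median of 16 GC sites against 6 in the other far-cis NDRs, so the motif is not separate from the number of sites. MET13, a methionine gene whose NDR lies 112 kb left of the VP, had 1898 in the PUS2 strain and 1129 in the control (log2 fold change 0.75, SE 0.25, DESeq2, adjusted p = 0.101) and was not called.

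On other chromosomes the raised NDRs were a small share of those tested (24 of 4373, 0.549%) and small in size. They lay on 10 chromosomes, with log2 fold changes of 0.83 to 1.22 and base means of 82.9 to 539.8. DMA2, a ubiquitin ligase gene of spindle positioning (XIV 408072), had 143 in the PUS2 strain and 61.4 in the control (log2 fold change 1.22, SE 0.29, DESeq2, adjusted p = 0.00743). HXT1, a low-affinity glucose transporter gene (VIII 292886), had 204 in the PUS2 strain and 88.0 in the control (1.22, SE 0.26, DESeq2, adjusted p = 9.28e-04). TIR4, a cell wall mannoprotein gene (XV 343446), had 127 in the PUS2 strain and 55.8 in the control (1.19, SE 0.27). These 3 were the only raised trans NDRs that also passed after removal of the running median, when an NDR near YHR212W-A (VIII 537924) joined them.

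The next in size were genes of varied function. MED4 of the Mediator complex (XV 658483) had 1.03 (SE 0.27), SLM4 of the vacuolar EGO complex (II 391678) 1.02 (SE 0.26) and GDH1, a glutamate dehydrogenase gene (XV 1043086), 1.01 (SE 0.24). MNN1, a mannosyltransferase gene (V 153007), had 1.00 (SE 0.23), PET8, which carries S-adenosylmethionine into mitochondria (XIV 625893), 0.99 (SE 0.24) and YIR018C-A (IX 386508) 0.96 (SE 0.24). Values near 0.95 belonged to the NDR of KNS1 and COX19, a protein kinase and a gene of cytochrome oxidase assembly (XII 108396), to ACH1, an acetyl-CoA hydrolase gene (II 193577), and to IRC4 (IV 1517770). RPS3 of the small ribosomal subunit (XIV 301715) and ARG4 of arginine synthesis (VIII 141487) each had 0.93 (SE 0.24 and 0.26). HSP30, a heat shock gene of the plasma membrane (III 157545), had 0.92 (SE 0.25). The other 9 had 0.83 to 0.91, with adjusted p of 0.0423 to 0.0485. They were SMN1 with 0.91, YAR064W with 0.90, an NDR of YBR209W near DUR12 with 0.89, the acetate transporter gene ADY2 with 0.88, MYO1 with 0.87, DSF2 with 0.85, PMP2 and GTT3 with 0.85, PTP3 with 0.83 and GDT1, a gene for a Golgi calcium and manganese transporter, with 0.83.

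Many trans calls stood near the limit of the test. The last NDRs inside it were MYO1, the type II myosin gene, ARG4 and PTP3, a tyrosine phosphatase gene, with adjusted p of 0.0455, 0.0470 and 0.0485. Just outside were an NDR next to DUR12 (urea amidolyase) with 0.92 (SE 0.26, adjusted p = 0.0548), that of YHR212W-A with 1.11 (SE 0.32) and that of YHR213W-B with 0.89 (SE 0.26), both at 0.0574. The NDRs of YHR212W-A, YHR213W-B and the raised YAR064W lie in sequence that is repeated near the ends of chromosomes I and VIII, and their reads may be shared between copies. With an adjusted p under 0.01 the trans count fell to 5, against 6 of 7 local NDRs and 4 of 6 far-cis NDRs that stayed.

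Of the 24 raised trans NDRs, 12 lay within 50 kb of a centromere, as did 616 of all 4373 trans NDRs (14.1%). Within 25 kb of a centromere 5 of 331 trans NDRs were raised, from 25 to 50 kb 7 of 285, from 50 to 300 kb 5 of 2202, and beyond 300 kb 7 of 1555. The closest were MNN1 at 0.962 kb and PET8 at 2.92 kb. The medians of all NDRs in these bins did not follow the count, at -0.02 within 25 kb, 0.02 from 25 to 50 kb and -0.0015 beyond 300 kb. At an unadjusted p under 0.05 the shares above the control were 9.06%, 11.6% and 8.10% in these bins, against 8.12% of all trans NDRs. Of the 12, only TIR4 kept its call after removal of the running median. By chromosome, II held 5 raised trans NDRs of 345 and VIII held 4 of 226, while VI, X, XI, XIII and XVI held none among 106, 288, 258, 356 and 376, with 4, 23, 15, 27 and 27 above the control at an unadjusted p under 0.05. Chromosome IV, with 600 NDRs, held only that of IRC4, 14.2 kb from the chromosome end. At an unadjusted p under 0.05, 13.1% of far-cis NDRs were above the control, and on the other chromosomes the share ran between 3.77% on VI and 9.86% on II.

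The neighbours of the 30 raised NDRs beyond 30 kb were mostly not raised. The 2 STR3 NDRs neighbour each other. Leaving them out, the 7 neighbours within 500 bp had a median log2 fold change of 0.48 (range 0.24 to 0.92), the 9 at 500 to 1000 bp 0.21 and the 14 at 1 to 2 kb -0.02. Reads that overlap 2 NDRs counted for both, and the median base mean of the neighbours was 84.2 at 500 to 1000 bp and 41.2 at 1 to 2 kb, so distance and base mean cannot be told apart here. HXT1 had 1.22 at its raised NDR and 0.27 (SE 0.24) at the next one 386 bp away, which has the higher base mean (308 against 146). At TIR4 the neighbour 444 bp away had 0.71 (SE 0.27), and at MNN1 the nearest one had 0.80 (SE 0.26), neither called.

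Gene lists were counted beyond 30 kb from the VP, where 30 of 4801 NDRs were raised and the median over all NDRs of the table was -0.01. Methionine and sulfur genes had 3 raised of 47 NDRs, all at MUP1 and STR3, with a median of 0.12. Amino acid permease genes had 1 raised (MUP1) and 1 lowered of 24, with a median of 0.32. The lowered one is the NDR at SUP6 beside PTR3, an amino acid sensor gene rather than a permease gene, which the list includes. Hexose transport genes had 1 raised of 17 (HXT1), and genes known to sit at nuclear pores 1 of 11 (HSP30). This short list does not measure pore association. The study mapped it directly, with the pore basket protein Mlp1 fused to M.CviPI, and reports that loci contacted from PUS2 tend to be pore-associated. Cell wall mannoprotein genes had 1 of 30 (TIR4) with a median of 0.39, the highest of the lists, and 10 of the 30 were above the control at an unadjusted p under 0.05, as were 8 of the 24 of the permeases and 6 of the 47 of the methionine and sulfur genes. Over all NDRs beyond 30 kb the same held for 411 of 4801 (8.56%). The mannoprotein gene CCW14 had 0.81 (SE 0.26), 0.07 (SE 0.30) and -0.36 (SE 0.29) at its 3 NDRs. Mannosyltransferase genes had 1 of 27 (MNN1) and ribosomal protein genes 1 of 215 (RPS3). None was raised among 22 NDRs of the iron regulon, whose regulator AFT1 is local, 28 of phosphate genes, 9 of galactose genes, 22 of glycolysis, 41 of lipid synthesis, 12 of histone genes and 34 of seripauperin genes, with 7, 6, 1, 1, 6, 1 and 1 above the control at an unadjusted p under 0.05. These lists differ in base mean, with medians of 49.8 for hexose transport, 90.6 for mannoproteins, 114 for amino acid permeases and 119 for lipid synthesis. The median over all NDRs of the table was 49.5. Because the log2 fold change went up with base mean, the shares above the control are not separate from it. With the running median over base mean removed, the median was -0.04 for methionine and sulfur genes, 0.14 for amino acid permeases and 0.17 for mannoproteins.

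The single lowered NDR lay on chromosome VI (VI 210561), at SUP6, a tyrosine tRNA gene, beside PTR3, a gene of the amino acid sensor of the plasma membrane, and CDC14, the mitotic exit phosphatase gene. Its level was 84.0 in the PUS2 strain and 206 in the control (log2 fold change -1.30, SE 0.26, DESeq2, adjusted p = 4.95e-04). It was also lowered from 2 other VPs over the same control libraries, with -1.18 (SE 0.28) from OLE1 and -0.74 (SE 0.20) from CDC43. From YBP2 it had -0.61 (SE 0.23) and was not called. The low value is thus not particular to PUS2. NDRs at tRNA genes beyond 30 kb had a median of -0.27 over 400 NDRs, with 2 raised, next to DUR12 and to PTP3, and 1 lowered, and 58 were below the control at an unadjusted p against 20 above. Over all 4828 NDRs, 290 were below the control and 422 above it at this limit. The tRNA gene NDRs had a median base mean of 42.1, and a median of -0.18 with the running median removed. The NDR just past HIS3, the gene used as the marker of the array, lies on chromosome XV at 722628, before DED1, and had -0.87 (SE 0.34, adjusted p = 0.187).

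The PUS2 table was set against those of 3 other VPs on chromosome VII with the same copy number and time, which share its control libraries. YBP2 (VII 390065 to 391990) and OLE1 (VII 398628 to 400160) lie to the right of PUS2, and CDC43, a subunit gene of a protein prenyltransferase (VII 214081 to 215211), farther left on the same arm. Over the control and at the same limits, 129 NDRs were raised from YBP2, 15 from OLE1 and 131 from CDC43, beside the 37 from PUS2. The difference of the log2 fold changes was divided at each NDR by its SE, the root of the sum of both squared SEs, for a two-sided normal p adjusted over all NDRs. Against YBP2, 1 NDR was higher from PUS2 (0.0207% of 4828) and 5 were lower (0.104%). Against OLE1, 2 were higher (0.0414%) and 1 lower (0.0207%). This SE leaves out the shared control. With an assumed covariance for it, 0.5 of the product of the SEs, 2 NDRs were higher and 14 lower than from YBP2, and 2 were lower than from OLE1. Against CDC43, 2 were higher (0.0414%) and 7 lower (0.145%), and 9 were lower with the assumed covariance. The median SE was 0.30 in the PUS2 table, 0.31 in that of YBP2, 0.30 in that of OLE1 and 0.27 in that of CDC43. At an unadjusted p under 0.05, the PUS2 values differed from those of YBP2 at 60 NDRs, of OLE1 at 7 and of CDC43 at 43. Each count is under a share of 0.05 of the 4828 NDRs, so this SE is likely too large. An NDR that did not pass is therefore not shown to be equal between VPs.

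The NDR of MRH4 and PUS2 was higher from PUS2 in all 3 comparisons. Its 3.96 (SE 0.23) stood against 1.40 (SE 0.24) from YBP2, 0.89 (SE 0.27) from OLE1 and 0.72 (SE 0.23) from CDC43, differences of 2.56 (SE 0.33), 3.07 (SE 0.35) and 3.24 (SE 0.33) with adjusted p of 3.84e-11, 1.09e-14 and 1.25e-19. The PYC1 NDR was higher from PUS2 than from OLE1 by 1.40 (SE 0.32, adjusted p = 0.0170) and than from CDC43 by 1.74 (SE 0.27, adjusted p = 2.43e-07). Against YBP2, where PYC1 had 1.36, the difference of 0.61 did not pass the test. The NDR that was lowest from PUS2 relative to each of the other VPs lay next to the gene of that VP. At PKP2 the value was -0.04 from PUS2 and 4.77 from YBP2 (difference -4.82, SE 0.44, adjusted p = 1.86e-24), at the 3′ side of OLE1 0.17 from PUS2 and 2.18 from OLE1 (difference -2.00, SE 0.36, adjusted p = 4.41e-05), and at LYS5 and PEX14, near CDC43, 0.53 from PUS2 and 2.90 from CDC43 (difference -2.37, SE 0.39, adjusted p = 2.65e-06). The PKP2 NDR, printed above with its 2 GC sites, was thus the highest of the 27 local NDRs in the YBP2 table and near the control level in the PUS2 table. The second RAD6 NDR, printed above with no GC site, had 0.07 from PUS2 and was raised from YBP2 at 1.52 (SE 0.32). That difference did not pass the test.

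Beyond 30 kb, none of the 30 raised NDRs was higher from PUS2 than from any of the 3 VPs by this test, also at an unadjusted p under 0.05 (0 for each), and the 2 STR3 NDRs were lower than from CDC43. With an SE that leaves out the shared control, the lack of a difference does not show that the values are equal. CDC43 lies between STR3 and PUS2 on the arm. The STR3 values were 1.56 and 1.36 from PUS2, against 2.88 and 2.97 from CDC43 (differences -1.33, SE 0.29, and -1.61, SE 0.36, adjusted p = 0.00405 and 0.00504). MUP1 had 1.91 (SE 0.26) from PUS2, 2.45 from YBP2, 1.87 from OLE1 and 1.54 from CDC43, and DMA2 had 1.22 from PUS2, 1.84, 1.45 and 1.26 from the others in the same order. Of the 30 NDRs, 25 were also raised from YBP2, 8 from OLE1 and 28 from CDC43, and 1 was raised from PUS2 only. Over the 30 NDRs the median was 0.96 from PUS2, where they were chosen for being raised, 0.90 from YBP2, 0.83 from OLE1 and 0.90 from CDC43, with lowest values of 0.83, 0.57, 0.65 and 0.63. Because all 4 tables use the same control libraries, a low control value at an NDR raises it in all of them, and the values from the 4 VPs are not independent.

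**Figure D5:**
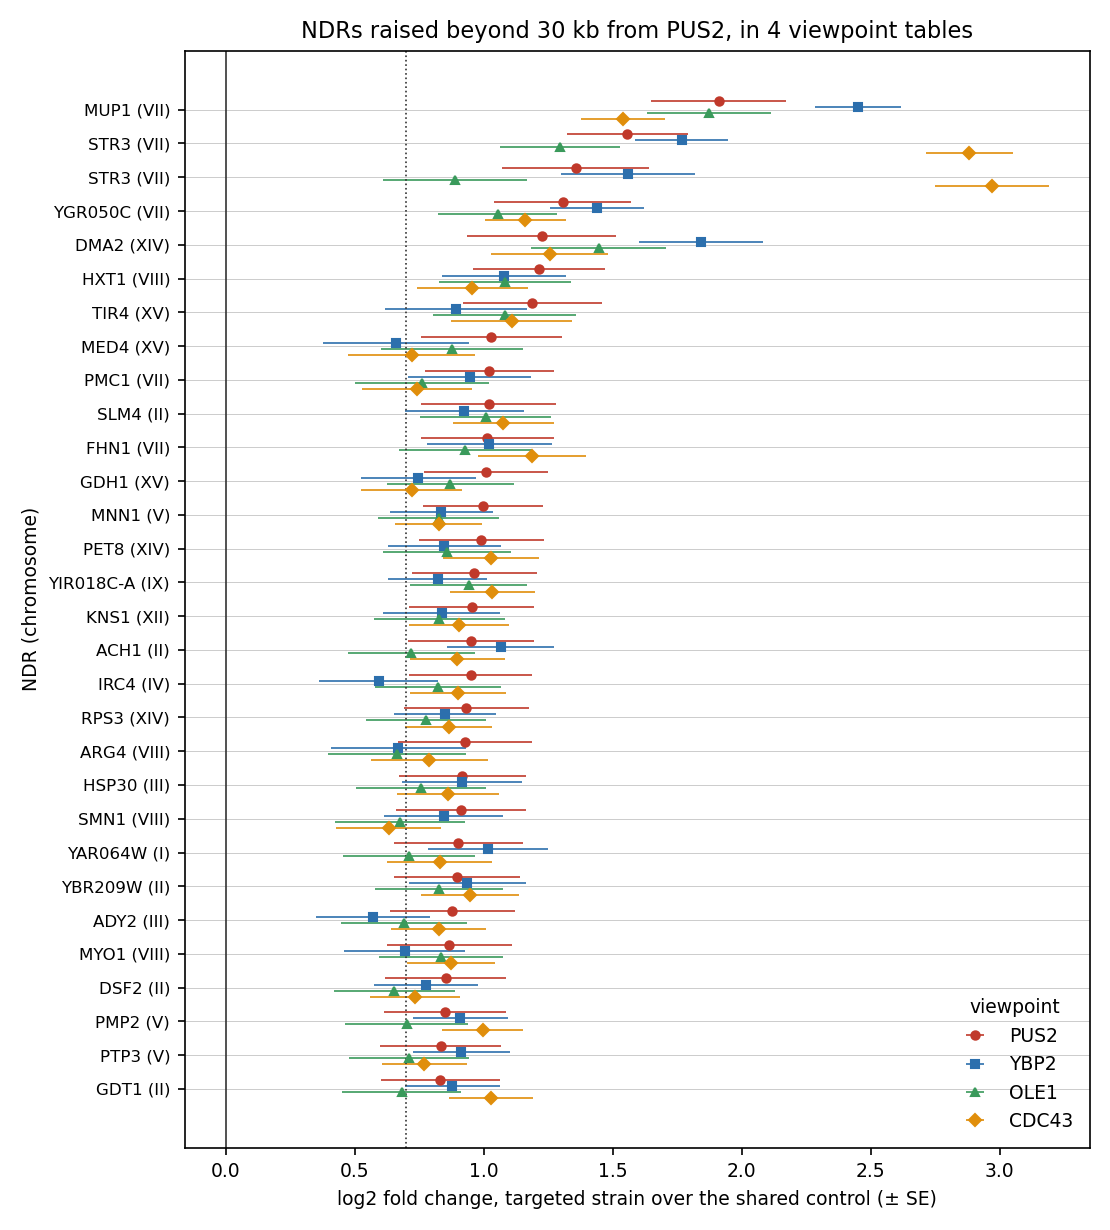
The log2 fold change of the targeted strain over the shared control, with its SE (horizontal axis), is shown for the 30 NDRs raised beyond 30 kb from PUS2, in falling order of the PUS2 value (vertical axis, chromosome in parentheses), for the VPs PUS2, YBP2, OLE1 and CDC43. The values of the 4 VPs overlap within their SEs at most NDRs, and the STR3 pair stands out with 2.88 and 2.97 from CDC43 against 1.56 and 1.36 from PUS2.

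Further NDRs of the left arm were lower from PUS2 than from CDC43. NUT1, a Mediator subunit gene, had 0.16 from PUS2 and 1.89 from CDC43, and an NDR of ARO2 and INO80 (VII 226146), genes of chorismate synthase and of a chromatin remodeller, had 0.17 from PUS2 and 1.48 from CDC43. MET13, which lies between CDC43 and PUS2, had 0.75 from PUS2 and 2.24 from CDC43 at one NDR, and the NDR beside it (VII 271337) had 0.33 from PUS2 and 1.63 from CDC43. Of the 5 NDRs that were lower from PUS2 than from YBP2, 4 lay near chromosome ends, from 0.015 to 5.77 kb from the end. These were YOL166W-A, YNR077C, YCL075W and IMD2, with values of -0.73, -0.69, -0.55 and -0.63 from PUS2, none called, against 0.76, 0.68, 0.75 and 0.60 from YBP2. After removal of the running median in both tables only PKP2 of the 5 was lower than from YBP2. The same step in the PUS2 table alone made YOL166W-A (-0.95), YNR077C (-0.91) and IMD2 (-0.86) lowered against the control, with adjusted p of 0.0138, 0.0133 and 0.0396. Sequence near chromosome ends is shared between near-identical copies, so which end the reads came from is uncertain.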

How the data were processed

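Per the labels, MeDIP-seq libraries were made with an antibody against 5-methylcytosine from yeast grown at 30 °C. The authors dropped low-quality reads with fastp 0.23.2, aligned them to sacCer3 with BWA 0.7.17, removed duplicates with Picard, counted reads per NDR with featureCounts 2.0.3, where a read could count for several NDRs, and compared 2 targeted with 2 control libraries in DESeq2 1.38.0. The deposited table gives for each NDR a base mean (a signal: size-factor normalised counts averaged over the 4 libraries), a log2 fold change, for which the sources used here state no shrinkage, its standard error (a score without fixed range), and p-values, raw and adjusted. These deposited p-values come from the authors' comparison. They were not printed, and all p-values given were recomputed from log2 fold change and SE (two-sided Wald) and adjusted by Benjamini-Hochberg over 4828 NDRs, which moved an adjusted p by at most 0.0014. The table's own comparison is the only form of the values used here, 4 of 21 tables were used, and none held values per library. Levels were derived as stated in the report.

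Python 3.11.15, numpy 2.4.6, scipy 1.17.1, pandas 2.3.3 and matplotlib 3.10.9 were used, and the steps were checked on simulated data. Sequences and gene positions came from R64, and NDR ends from the study's NDR list, at hand for 1998 NDRs. Named NDRs were every raised local and far-cis one, every one within 10 kb of the VP, the 15 raised trans ones with the largest log2 fold change, the 5 lowest of the lowered, the 5 largest differences in each direction per pair of VPs, called members of the gene lists, and the 3 just inside and just outside the limit, under gene names within 1 kb. The other local and raised trans NDRs were named to account for every one. CCW14, MET13, the NDR past HIS3 and the neighbours of raised NDRs were named after their values were seen. Gene lists covered methionine and sulfur genes, amino acid permeases, hexose transport, mannoproteins, mannosyltransferases, the iron regulon, phosphate, galactose, pore-associated genes, glycolysis, lipid synthesis, histones, seripauperins, strain markers, ribosomal proteins and tRNA genes. Members and lists were chosen with earlier results of these data known. Alternatives were other limits on log2 fold change, adjusted p and distance, removal of the running median over 301 NDRs ordered by base mean, and a base mean of at least 10. A further one was a covariance from the shared control, assumed at 0.5 of the product of the SEs and not estimated from the data.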

Additional observations from a re-analysis of the deposited data

Results flagged for a closer look

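At 4 NDRs near chromosome ends the value from PUS2 and that from YBP2, both over the same control libraries, had opposite signs and differed by the Wald test of their difference (Benjamini-Hochberg over 4828 NDRs). The difference, PUS2 minus YBP2, was -1.48 (SE 0.32, adjusted p = 0.00727) at YOL166W-A, -1.37 (SE 0.31, adjusted p = 0.0110) at YNR077C, -1.30 (SE 0.30, adjusted p = 0.0186) at YCL075W and -1.23 (SE 0.31, adjusted p = 0.0482) at IMD2, an IMP dehydrogenase gene. The base means at these NDRs in the PUS2 table were 1258, 1498, 7872 and 3657.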

How the results depend on the processing

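The local count of 7 raised NDRs stayed at 6 or 7 and the far-cis count of 6 at 4 to 7 under every alternative run. The trans count of 24 was 6 with a log2 limit of 1, 5 with an adjusted p under 0.01 and 4 with the running median removed. The lowered count of 1 was 2 with a base mean of at least 10, where fewer NDRs were tested, and 41 with the running median removed. A covariance from the shared control, assumed at 0.5 of the product of the SEs, makes the SE of a difference smaller. With it, 2 NDRs were higher and 14 lower from PUS2 than from YBP2, 2 lower than from OLE1 and 9 lower than from CDC43. The count lower than from YBP2 was 1 with the running median removed and 2 with an adjusted p under 0.01, and the count higher than from OLE1 was 1 with an adjusted p under 0.01. The cause was not tested for the other changes. Of the 77 named NDRs, removal of the running median left 48 on the same side of the limits, with 24 weaker and 5 stronger. No called NDR changed sign, while some uncalled ones did, such as PKP2 from -0.04 to 0.36. No paired analysis was possible because the tables hold no values per library, and for the same reason no library could be left out. At a median base mean of 49.5 and a median SE of 0.30, small differences at low NDRs were not detectable, and every raised NDR had a base mean of 82.9 or more.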

Other observations

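The 13 NDRs less than 1 kb from a chromosome end had a median log2 fold change of -0.69 from PUS2 (range -0.86 to -0.55, none called), 0.08 from YBP2 (range -0.47 to 0.76, 2 raised), -0.41 from OLE1 (range -0.64 to -0.22) and -0.14 from CDC43 (range -0.43 to 0.08), over the same control libraries. At 1 to 10 kb from an end, 78 NDRs had medians of -0.17 from PUS2, 0.06 from YBP2, -0.17 from OLE1 and -0.03 from CDC43. Sequence at chromosome ends is repeated between chromosomes, so these NDRs are not separate observations.

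Around PUS2, the 27 NDRs within 30 kb held 7 raised from PUS2 (median 0.34), 12 from YBP2 (median 0.70), 6 from OLE1 (median 0.34) and 3 from CDC43 (median 0.02). The NDR of AFT1 had 1.78 from PUS2, 1.83 from YBP2, 1.08 from OLE1 and 1.06 from CDC43. SGF73 had 0.60 from PUS2, against -0.18 from YBP2, -0.12 from OLE1 and -0.22 from CDC43. The SDS23/OLE1 NDR had 1.13 from PUS2, against 2.36 from YBP2 and 1.53 from OLE1. The tables share control libraries, and apart from the differences named in the report none of these passed the test of the difference. The SDS23/OLE1 value from PUS2 minus that from YBP2 was just outside, at -1.24 (SE 0.32, Wald test of the difference, adjusted p = 0.0602). This SE leaves out the shared control, and a covariance for it makes the SE smaller. The 9 NDRs at strain marker genes beyond 30 kb had a median of -0.03, with none raised and 0 above the control at an unadjusted p under 0.05.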
